A study of Homo sapiens with 6 samples.

Results

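The unfolded protein response is described here through 9 genes, which encode its sensors (ERN1, EIF2AK3, ATF6, ATF6B), the transcription factors XBP1, CREB3 and CREB3L2, and the proteases that release the membrane-bound factors (MBTPS1, MBTPS2). They were chosen by symbol for their place in the pathway, with earlier results of these data known, and 9 of 9 were found among the 60668 genes of the deposited table. All 9 had a mean above the minimum for testing, as did 21101 genes in all.

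The endoplasmic reticulum (ER) folds secreted and membrane proteins, and when unfolded proteins build up, sensors in its membrane switch on the unfolded protein response. IRE1α, the product of ERN1, cuts a short intron out of XBP1 mRNA in the cytoplasm, PERK, the product of EIF2AK3, phosphorylates the translation factor eIF2α and so favours translation of ATF4, and ATF6 moves to the Golgi, where site-1 and site-2 proteases release its transcription factor domain. Glucose supplies the sugars that are attached to proteins in the ER, and glucose withdrawal is a classical way to activate this response in cultured cells.

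The mRNAs came from MiaPaCa-2, an established human cell line of pancreatic ductal adenocarcinoma. The series compared cells kept for 48 h in low glucose (2.5 mM, 3 libraries) with control cells (25 mM, 3 libraries), given as independent biological replicates of the 1 line and with no genetic change or drug named for either group. The treatment text of all 6 samples states 2.5 mM, whereas the titles and the series design separate the control. The libraries were strand-specific and held 9741183, 10126218 and 10190154 reads on genes in control, and 10841656 (replicate 1), 10595408 (replicate 2) and 13733477 (the third library) in low glucose.

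XBP1 carries the site on which the sensor branch acts, so its sequence is shown first. On hg38 the gene lies on the minus strand of chromosome 22, from 28794555 to 28800597. The cytoplasmic intron has 26 bases and lies inside exon 4 (chr22:28796047-28796192, 146 bp, wholly coding). Gencode places the gap at chr22:28796128-28796153, but 7 placements of a gap of this length leave the same spliced sequence. The 1 of them with G before and CAG after both cuts, as IRE1α is known to cleave, is chr22:28796127-28796152, 1 base downstream, and is the one shown. In the coding direction, with the intron in capitals, the exon reads as follows.
XBP1 exon 4: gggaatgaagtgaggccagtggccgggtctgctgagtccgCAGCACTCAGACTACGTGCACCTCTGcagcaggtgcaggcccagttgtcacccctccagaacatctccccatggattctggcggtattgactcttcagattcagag
The annotated transcript that keeps the intron has an open reading frame of 261 codons, and the transcript without it has 376 codons. The intron makes up 0.859% of the 3028 bp of exon sequence of the gene, and the deposited values count reads per gene. They therefore give the amount of XBP1 mRNA and do not tell its spliced form from its unspliced form.

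The promoters of the 9 genes were searched for elements that serve the response, in RefSeq windows (GRCh38.p14) from 250 bases before to 50 bases after each start, 11 windows in all because XBP1 and CREB3L2 have a pair each. XBP1 is printed because one of its windows was the only one to hold an ER stress response element (CCAAT, 9 bases, CCACG), which 0.0769% of 35116 windows held on either strand. The element is in capitals, its first base lies 52 bases before the RefSeq start, and the stretch is chr22:28800598-28800717 on the minus strand.
XBP1 promoter: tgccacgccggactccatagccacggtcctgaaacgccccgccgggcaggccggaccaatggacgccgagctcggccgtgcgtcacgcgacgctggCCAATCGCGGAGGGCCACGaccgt
None of the 11 windows held ERSE-II (ATTGG, 1 base, CCACG), found in 0.0541% of all windows, or the UPR element (TGACG followed directly by TGG), found in 0.729%. The C/EBP-ATF response element (TGATG, 1 base, AA and 1 more base) matched once, 17 bases after the start in one window of CREB3L2, and 3.61% of all windows held it. These matches describe letters of the reference and not the binding of a factor.

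Values below are normalized counts, which are reads divided by a size factor per library, and are given for the control libraries in order of rising depth and then for low glucose replicate 1, replicate 2 and the third library. The labels name low glucose replicates 1 and 2, and the other 4 libraries were assigned from the run of column names for each condition. Of the keratins that mark this epithelial line, KRT8, KRT18 and KRT19 were abundant (summing with KRT7 to between 63638 and 76696 in control, and to between 35852 and 37782 in low glucose). KRT7 itself was near the floor, with means of 4.73 in control and 8.83 in low glucose (n = 3 each). No read was found for 4 of 4 acinar markers. The 4 leukocyte markers summed to at most 48.1 in control and 24.0 in low glucose, with PTPRC and CD3E at 0. Most of this sum was CD14, with means of 33.6 in control and 14.2 in low glucose (n = 3 each). CD14 fell by 1.19 on the log2 scale (limma adjusted p = 0.0196). The 4 fibroblast markers summed to at most 46.8 in control and 21.2 in low glucose, with DCN at 0. In limma 1 of them passed as lower, by 2.18 on the log2 scale. For the 3 endothelial markers the sum was between 157 and 192 in control, nearly all from CDH5, and at most 12.1 in low glucose. CDH5 had the largest fall of all tested genes, 3.92 on the log2 scale (limma adjusted p = 1.74e-08). The control means of PECAM1 and VWF were only 1.84 and 2.22. Mitochondrially encoded reads were 2.47% to 3.82% of the control libraries, and 4.65% to 5.12% of the low-glucose ones. The part of these shifts in the results was not tested. Because each library is a bulk sample, fewer cells of a kind and less RNA per cell cannot be told apart.

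Of the 9 genes, 6 passed limma's test at an adjusted p of 0.05, 5 higher (ERN1, EIF2AK3, XBP1, CREB3L2, CREB3) and 1 lower (MBTPS2) in low glucose. Of all tested genes 30.9% passed, 14.7% being higher and 16.2% lower. The control and low-glucose values did not overlap for 8 of the 9, against 43.9% of all tested genes. The 9 split by size: XBP1, CREB3L2 and the genes of IRE1α and PERK more than doubled, and the remaining members, ATF6 included, changed by less than 1.3 times.

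**Figure D1:**
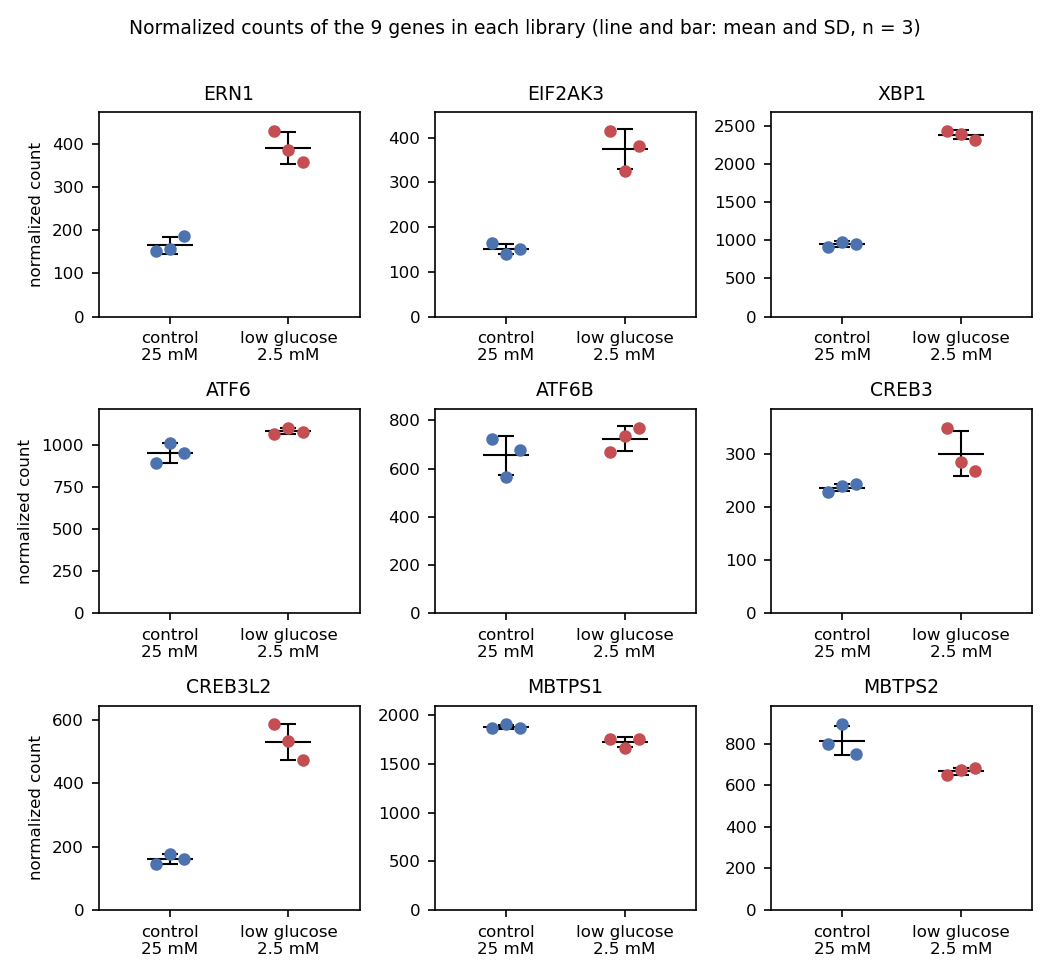
Normalized count (vertical axis, from 0) of each gene in every library, with a line and bar for the mean and SD of 3 libraries per condition. The low-glucose points stand clear above control for ERN1, EIF2AK3, XBP1 and CREB3L2, whereas ATF6B is the 1 gene whose conditions overlap.

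ERN1 and XBP1 form the IRE1α branch, and both rose by about the same factor. ERN1 (ENSG00000178607.16, chromosome 17, 64039080 to 64130819, minus strand) had 151, 157 and 187 normalized counts in control and 431, 387 and 358 in low glucose. The lowest low-glucose library was nearly 2 times the highest control library, and the mean went from 165 ± 19.3 (SD, n = 3) to 392 ± 36.9 (SD, n = 3). On the log2 scale ERN1 rose by 1.24 (SE 0.117, limma adjusted p = 2.87e-06), and 6.20% of the tested genes rose more. ENSG00000286629 and ENSG00000289957 overlap its exons from the other strand, by 432 and 452 bp, and the former had 2.39% of its value while the latter was not analysed here.

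XBP1 (ENSG00000100219.16), the transcription factor whose mRNA IRE1α splices, had 906, 980 and 958 normalized counts in control against 2437, 2392 and 2322 in low glucose. Within a condition its highest library exceeded its lowest by only 1.08-fold in control and 1.05-fold in low glucose. Its mean rose 2.52-fold, from 948 ± 37.9 (SD, n = 3) to 2384 ± 57.5 (SD, n = 3), or by 1.33 on the log2 scale (SE 0.0731, limma adjusted p = 1.86e-08). Of the tested genes 5.12% rose more. Per library, the log2 ratio of XBP1 to ERN1 was 2.52 ± 0.150 in control and 2.61 ± 0.101 in low glucose (SD, n = 3), and the ranges overlapped (exact permutation p = 0.6, two-sided, adjusted p = 0.9 over the 5 ratios compared). With 3 libraries a condition, this test cannot give a p below 0.1, so it could not separate any of the 5 ratios.

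EIF2AK3, the gene of the eIF2α kinase PERK, changed like the gene of IRE1α. It lies on the minus strand of chromosome 2 (ENSG00000172071.14, 88556741 to 88691518) and had 164, 140 and 151 normalized counts in control and 416, 326 and 382 in low glucose. No library of the conditions overlapped, and the mean rose 2.47-fold, from 152 ± 11.6 (SD, n = 3) to 374 ± 45.2 (SD, n = 3). The rise on the log2 scale was 1.29 (SE 0.118, limma adjusted p = 2.21e-06). The log2 ratio of ERN1 to EIF2AK3 was 0.12 ± 0.214 in control and 0.07 ± 0.172 in low glucose (SD, n = 3), a difference of -0.05 that was smaller than the spread among libraries of either condition (exact permutation p = 0.8, adjusted p = 0.9 over 5 ratios). On the strand opposite EIF2AK3, ENSG00000225420 shares 781 bp of exon with it, had 26.6% of its value and rose by 1.32 on the log2 scale. The sources do not state whether the counting used strand, so reads of this pair cannot be told apart.

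ATF6 is the sensor that is itself a transcription factor precursor, and ATF6B encodes its paralog. ATF6 (ENSG00000118217.6, chromosome 1, 161766298 to 161977574, plus strand) had 893, 1011 and 951 normalized counts in control and 1068, 1104 and 1079 in low glucose. The conditions did not overlap, but the gap between them was narrow and the means were 952 ± 58.7 (SD, n = 3) and 1084 ± 18.8 (SD, n = 3). The log2 difference of 0.19 (unadjusted 95% interval 0.02 to 0.36) did not pass (limma adjusted p = 0.0815). It passed after scaling to library totals (0.0136), after quantile normalization (0.00256), in edgeR (0.0404) and without the control library of 10126218 reads (0.0103).

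ATF6B (ENSG00000213676.13, chromosome 6, 32115264 to 32128253, minus strand) had 724, 566 and 676 normalized counts in control and 670, 734 and 770 in low glucose. These ranges overlapped, with means of 656 ± 81.0 and 724 ± 50.8 (SD, n = 3), and the log2 difference of 0.15 (95% interval -0.06 to 0.36) did not pass (limma adjusted p = 0.285). The log2 ratio of ATF6 to ATF6B was 0.54 ± 0.270 in control and 0.58 ± 0.0932 in low glucose (exact permutation p = 0.9, n = 3 per condition, adjusted p = 0.9 over 5 ratios). For this pair the low-glucose range, 0.49 to 0.67, lay within the control range of 0.30 to 0.84.

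CREB3 and CREB3L2 encode membrane-bound factors of the same family, which are released by the same proteases as ATF6, and they differed in size of change. CREB3L2 (ENSG00000182158.15, chromosome 7, 137874979 to 138002086, minus strand), a factor known for secretory capacity in cartilage, had 146, 176 and 162 normalized counts in control and 585, 532 and 471 in low glucose. Its mean went from 161 ± 15.2 to 530 ± 56.8 (SD, n = 3), 3.29-fold, and the lowest low-glucose library was well over 2 times the highest control library. CREB3L2 rose by 1.71 on the log2 scale (SE 0.113, limma adjusted p = 1.30e-07), more than any other of the 9 genes, and only 2.34% of the tested genes (493) rose more.

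CREB3 (ENSG00000107175.12, chromosome 9, 35732598 to 35736999, plus strand), also called Luman, had 229, 240 and 243 normalized counts in control and 350, 284 and 269 in low glucose. The low-glucose values lay above control, but replicate 1 stood far above the other 2 libraries of its condition. CREB3 rose by 0.34 on the log2 scale (SE 0.115, limma adjusted p = 0.0380). Leaving out low glucose replicate 1 (adjusted p = 0.212 in limma), replicate 2 (0.0770) or the control library of 9741183 reads (0.118) ended the call, as did alternatives with all libraries: quantile normalization (0.0599), no variance trend (0.123) and DESeq2 (0.0677). GBA2 shares 134 bp of exon with CREB3 on the other strand, had 132% of its value and rose by 0.30 on the log2 scale (limma adjusted p = 0.0311). The log2 ratio of CREB3 to CREB3L2 went from 0.56 ± 0.105 to -0.82 ± 0.0821 (SD, n = 3). CREB3 thus had the higher count in all 3 control libraries and CREB3L2 in all 3 low-glucose libraries. The exact permutation p of 0.1 was the smallest the design allows (adjusted p = 0.5 over 5 ratios). These counts are not scaled to the canonical transcript, which has 1496 bp for CREB3 and 7441 bp for CREB3L2. Scaled to depth and to this length (RPKM, described below), CREB3 was the higher in both conditions. The means were 14.4 against 1.96 in control and 19.3 against 6.82 in low glucose (n = 3 each).

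MBTPS1 and MBTPS2 encode the site-1 and site-2 proteases, which cut ATF6, the CREB3 family and the sterol-sensing SREBP factors in turn. Neither protease gene was higher in low glucose. MBTPS1 (ENSG00000140943.17, chromosome 16, 84053761 to 84116942, minus strand) had 1873, 1906 and 1869 normalized counts in control and 1756, 1662 and 1754 in low glucose. The libraries of the conditions did not overlap, yet the log2 difference of -0.13 (95% interval -0.28 to 0.02) did not pass (limma adjusted p = 0.194), and after quantile normalization it was 0.092.

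MBTPS2 (ENSG00000012174.12, chromosome X, 21839617 to 21885423, plus strand) had 802, 894 and 752 normalized counts in control and 649, 674 and 683 in low glucose. All 3 low-glucose libraries were below all control libraries, with means of 816 (coefficient of variation 8.82%) and 669 (2.58%, n = 3 per condition). MBTPS2 fell by 0.28 on the log2 scale (SE 0.0858, limma adjusted p = 0.0211). This call ended with low glucose replicate 1 (adjusted p = 0.0988 in limma), replicate 2 (0.0744) or the third library (0.0611) left out, without the control library of 9741183 reads (0.0587), after scaling to library totals (0.0743) or quantile normalization (0.132), and without the variance trend (0.106). YY2 lies on the same strand within MBTPS2, shares 1093 bp of exon and had 7.30% of its value. Per library the log2 ratio of MBTPS1 to MBTPS2 was 1.21 ± 0.111 in control and 1.36 ± 0.0664 in low glucose (SD, n = 3), and the ranges overlapped (exact permutation p = 0.2, adjusted p = 0.5 over 5 ratios).

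**Figure D2:**
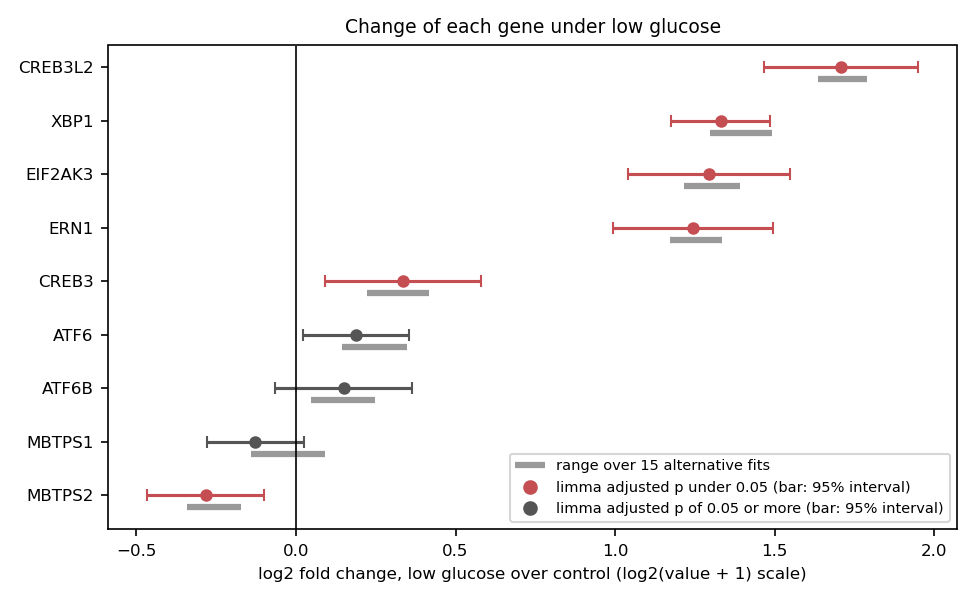
Log2 fold change of each gene, low glucose over control, with the 95% interval from limma and, as a grey bar, the range over 15 alternative fits. CREB3L2, XBP1, EIF2AK3 and ERN1 lie above 1, and only the grey bar of MBTPS1 crosses 0.

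Levels of different genes were compared as RPKM, the reads of a library scaled to its depth and to the length of the canonical transcript in kilobases. In control the order was XBP1 (47.9), MBTPS1 (39.0), ATF6B (22.7), MBTPS2 (16.6), CREB3 (14.4), ATF6 (11.5), EIF2AK3 (3.03), CREB3L2 (1.96) and ERN1 (1.90), each a mean of 3 libraries. Only the neighbours CREB3L2 and ERN1 overlapped between libraries, and the kinase sensors thus stood near the bottom of the list, well below ATF6 and the proteases. In low glucose XBP1 reached a level of 127.5, EIF2AK3 7.91, CREB3L2 6.82 and ERN1 4.76. The 3 genes with the lowest control levels stayed lowest in low glucose, below ATF6 at 13.9. CREB3 (19.3) stood above MBTPS2 (14.4) there, and the neighbours MBTPS2 and ATF6, and EIF2AK3 and CREB3L2, overlapped.

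**Figure D3:**
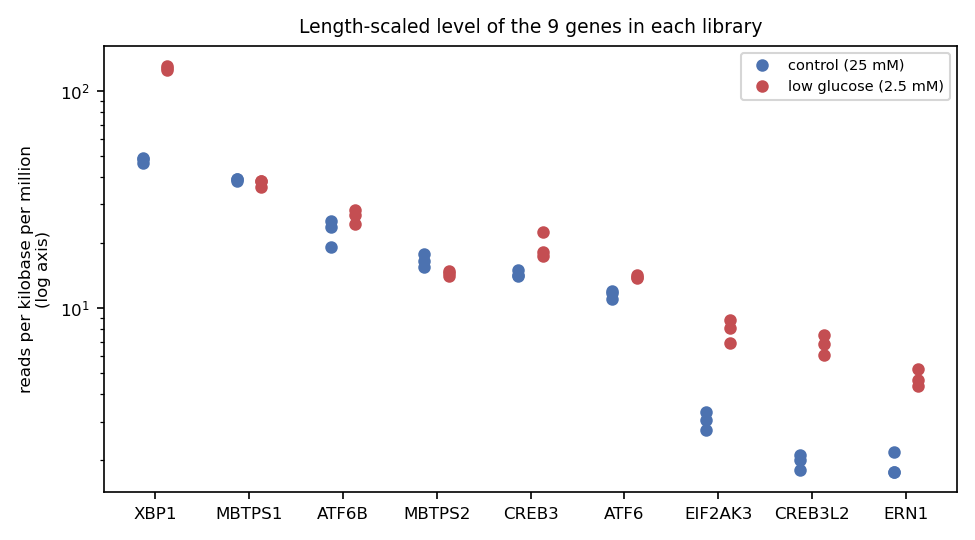
Level in RPKM (log axis) of the 9 genes in each library, ordered by their mean level in control. XBP1 is highest in both conditions, and the distance between conditions is widest for CREB3L2, EIF2AK3, XBP1 and ERN1.

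The genes whose values ran most like a sensor over the 6 libraries were sought among the 10149 genes whose mean reached 100, by the root mean square difference in log2 level relative to control. For ERN1 they were CSPG4P10 (0.0452), GOLGA2P10 (0.0669) and HEMK1 (0.0816). CSPG4P10 and GOLGA2P10 are pseudogenes whose reads may be shared with near-identical copies. For EIF2AK3 they were IDH1 (0.0762), which encodes the NADPH-producing isocitrate dehydrogenase of the cytosol, PMAIP1 (0.0766), a BH3-only regulator of apoptosis, and PAX8 (0.0857), a transcription factor. XBP1 ran closest to HMOX1 (0.0409), the haem-degrading oxygenase, MRNIP (0.0532) and ARHGEF2 (0.0734), and ATF6 to MTA1 (0.0142), PEX10 (0.0219) and TMBIM1 (0.0254). Among the same 10149 genes, XBP1 ranked 19 for ERN1 and 20 for EIF2AK3, and ERN1 ranked 21 for XBP1. EIF2AK3 ranked 53 for ERN1 and 38 for XBP1, and ERN1 ranked 39 for EIF2AK3. CREB3L2 ranked 339 for ERN1, 278 for EIF2AK3 and 167 for XBP1. These are descriptions over 6 libraries of 2 conditions, in which any gene with a like fold change ranks high. HEMK1, PAX8, PEX10, MRNIP, ARHGEF2 and MTA1 also overlap, exon on exon, an opposite-strand gene with over 10% of their value.

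The genes around the 9 were counted in 10 lists from textbook knowledge, 90 genes in all. The lists were written with earlier results of these data known, so their counts are a description and not independent evidence. Of these, 48 were higher and 13 lower in limma (67.8% called), with a median log2 fold change of 0.37, while the median of all tested genes was 0.05. Of all tested genes 30.9% were called, 14.7% higher and 16.2% lower. The share called was largest for the target genes of XBP1 (80.0%), ATF6 (100%) and PERK and ATF4 (93.8%). In the other lists it was 25.0% to 60.0%. The regulators of the sensors moved in both directions, as did the whole table.

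Of 15 target genes of XBP1, 11 rose, 1 fell and 3 did not pass, with a median log2 fold change of 0.44. The number that rose was 8 without the variance trend, 8 without low glucose replicate 1 and 13 after quantile normalization. DNAJB9, a co-chaperone that also binds IRE1α, had 91.9, 93.6 and 122 normalized counts in control and 726, 713 and 644 in low glucose, a rise of 2.76 on the log2 scale (SE 0.122, limma adjusted p = 4.24e-09). SEC24D, a cargo adaptor of the vesicle coat that leaves the ER, rose by 2.05 (SE 0.110, limma adjusted p = 1.74e-08). SRPRB, a subunit of the receptor that docks ribosomes to the ER, fell by 0.29 (limma adjusted p = 0.0117), a call lost after scaling to library totals (0.0531) or quantile normalization (0.326), without the variance trend (0.0835), and without the control library of 9741183 reads (0.0689), low glucose replicate 1 (0.0619) or the third low-glucose library (0.0555).

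All 11 target genes of ATF6 on the list rose, with a median log2 fold change of 1.66, while the mRNA of ATF6 itself did not pass. Release of the ATF6 protein was not measured, and which factor raised these genes was not tested. HERPUD1, which serves the degradation of ER proteins, had a log2 fold change of 3.33, and its values were 399, 370.0 and 458 in control and 4419, 3994 and 3920 in low glucose. SDF2L1, a cofactor of ER chaperones, went from 231 ± 43.3 to 1327 ± 225 (SD, n = 3), a log2 rise of 2.52 (SE 0.136, limma adjusted p = 1.76e-08).

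Of 16 genes on the list of PERK and ATF4 targets, which holds ATF4 itself, 15 rose, with a median log2 fold change of 1.48. The activity of PERK was not measured, and its part in these rises was not tested. NUPR1, a stress-induced chromatin protein, went from 13.2 ± 4.69 to 139 ± 24.5 normalized counts (SD, n = 3), a rise of 3.34 on the log2 scale (SE 0.261, limma adjusted p = 5.37e-07). DDIT3, which encodes the factor CHOP, had 197, 108 and 216 normalized counts in control and 1330, 1110 and 1155 in low glucose. ERO1A, an oxidase of the ER, was the 1 target that did not pass, with a log2 difference of 0.11 (limma adjusted p = 0.356).

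The regulators of each sensor were mixed. Of 10 regulators and effectors of IRE1α, 2 rose, 3 fell and 5 did not pass (median -0.21). SYVN1, the ubiquitin ligase of ER-associated degradation, rose by 1.61 (SE 0.0880, limma adjusted p = 1.86e-08) and FICD, which modifies the chaperone BiP, by 1.15 (SE 0.115, limma adjusted p = 4.73e-06). MAP3K5, the kinase ASK1 downstream of IRE1α, fell by 1.24 on the log2 scale (SE 0.145, limma adjusted p = 1.89e-05). Of 5 regulators of PERK and eIF2α, 2 rose, 1 fell and 2 did not pass (median 0.16). DNAJC3, an inhibitor of eIF2α kinases, rose by 1.63 and PPP1R15A, the stress-induced subunit of an eIF2α phosphatase, by 1.26, whereas EIF2S1, which encodes eIF2α itself, fell by 0.52 (SE 0.0752, limma adjusted p = 1.26e-04).

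Of 10 partners of ATF6 and the CREB3 factors, 1 rose, 3 fell and 6 did not pass (median -0.01). This balance depended on the scaling: 3 rose and 2 fell after scaling to library totals, and 2 rose and 2 fell after quantile normalization. CREBRF, which targets CREB3 for degradation, rose by 1.35 (SE 0.145, limma adjusted p = 9.22e-06), and HCFC1, a coregulator that binds CREB3, fell by 0.64 (SE 0.0804, limma adjusted p = 3.61e-05). Among the 4 family genes outside the 9, CREB3L1 rose by 0.52 (SE 0.106, limma adjusted p = 0.00183) and the other 3 did not pass (median -0.09).

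The list of transcripts that IRE1α is known to degrade held 7 genes, of which 3 rose, 1 fell and 3 did not pass (median 0.39). PER1, a circadian repressor, had 91.9, 114 and 93.1 normalized counts in control and 312, 312 and 328 in low glucose, a rise of 1.67. BLOC1S1, a lysosome-positioning subunit and the best-known of these substrates, rose by 1.07 from 13.2 ± 1.93 normalized counts (SD, n = 3, limma adjusted p = 0.0123). It no longer passed after quantile normalization (0.0637), nor with low glucose replicate 1 (0.0567) or the third low-glucose library (0.0545) left out. SCARA3, a scavenger receptor, fell by 0.95 (SE 0.216, limma adjusted p = 0.00391; 0.0586 without the variance trend).

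Of 6 substrates of the site-1 protease outside the 9, 1 rose, 2 fell and 3 did not pass (median -0.14). The 1 that rose was CREB3L1, and the CREB3 family genes on this list were already counted above among the family genes. SREBF1, the gene of a sterol and lipid factor, fell by 0.52 (SE 0.0759, limma adjusted p = 1.25e-04). Of 11 genes of the coat that carries cargo such as ATF6 from the ER to the Golgi, 4 rose, 2 fell and 5 did not pass (median -0.05). Besides SEC24D, SEC23B rose by 0.45 (SE 0.0824, limma adjusted p = 8.28e-04), while SAR1A, the small GTPase that starts coat assembly, fell by 0.52 (SE 0.0923, limma adjusted p = 6.53e-04). SYVN1, FICD, SRPRB, DDIT3, BLOC1S1 and SREBF1 each overlap, exon on exon, at least 1 opposite-strand gene, and these partners had 17.8% to 490.0% of their value, and the log2 changes of these partners ran from -0.37 to 0.53.

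**Figure D4:**
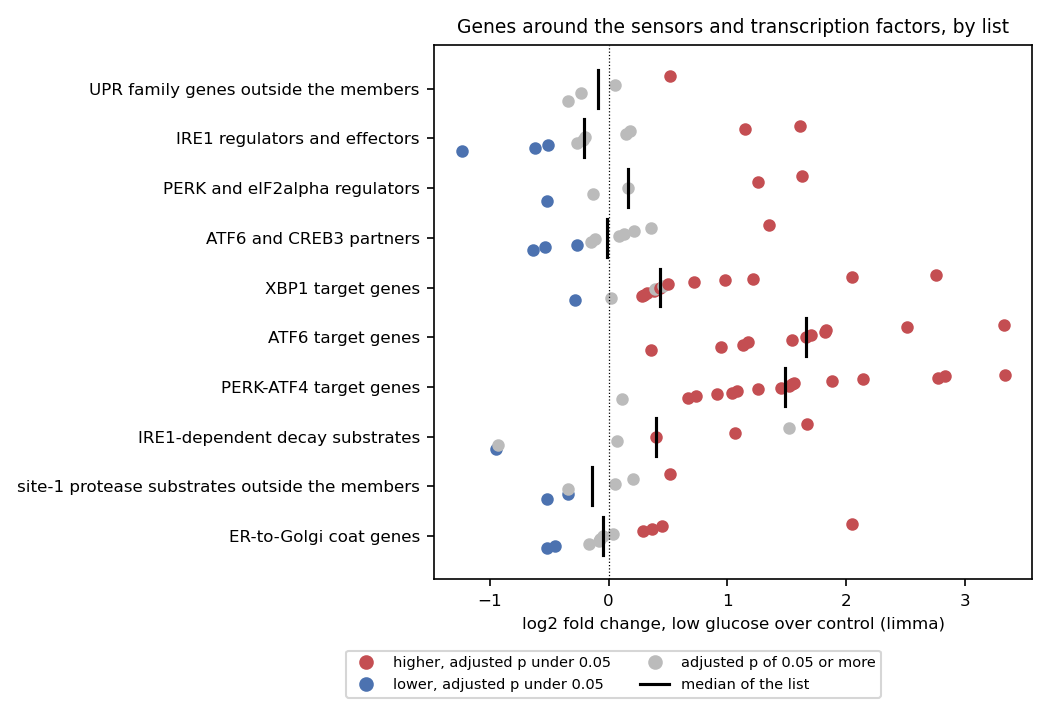
Log2 fold change from limma of the 90 genes in 10 lists, with 1 point per gene in each list that holds it and a line at the list's median. All 11 target genes of ATF6 are to the right of 0, while the lists of regulators and partners spread on both sides.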

How the data were processed

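RNA was measured by strand-specific, paired-end RNA-seq in 6 MiaPaCa-2 libraries, 3 per condition. Per the labels and the paper's methods, the authors trimmed reads with Trim Galore, mapped them to hg38 with STAR 2.7.0e and used DESeq2. RSEM is among the software the paper lists, but the sources used here neither tie it to the deposited values nor give a strand setting. Each deposited value is a signal on the count scale, in that the authors had scaled the reads of a gene by the size factor of the library. In all 6 libraries 100% of values were whole multiples of 1 read (tolerance 0.1 read), and median-of-ratios factors recomputed over 17906 genes matched. Of the 60668 identifiers, 99.46% matched a table of gene symbols.

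The labels name 2 of the 6 columns. The other 4 were assigned by condition from their run of names and carry no replicate number. Limma's p-values set the difference between conditions against the spread of these libraries within a condition. The variance of each gene is also drawn towards a trend over all genes. Replicates of a condition differed by more than sampling noise (chi-square per gene between 1.90 and 2.89 in low glucose, between 4.63 and 18.9 in control), and their number limits the precision. In control the pairs with the library of 10126218 reads had 8.74 and 18.9, and the pair without it 4.63.

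Values were compared as log2(value + 1) for genes whose mean reached 1, with limma 3.58.1 (R 4.3.3; lmFit, eBayes with trend, two-sided) and Benjamini-Hochberg adjustment over all 21101 genes tested. This pseudocount makes changes of low genes look smaller. Ratios of genes within a library were compared with exact permutation tests. The fits were first run on simulated tables with known changes. These had the same spread setting for all genes and far fewer changed genes than were called here. The run therefore checked the code and not the error rates on these data. The members and lists were chosen with earlier results of these data known, so the counts over the lists are not independent evidence. The genes named from each list were the 2 with the largest rise and the 1 with the largest fall among those past the test with a mean of at least 20, and for ERN1, EIF2AK3, ATF6 and XBP1 the 3 genes most like each. ERO1A, SPARC, PDGFRB and the cell type markers were named after their values were seen or as a check of the label.

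Alternatives were scaling to library totals, TMM factors, quantile normalization, a minimum mean of 5 or none, a pseudocount of 0.1, no variance trend, DESeq2 1.42.0 and edgeR 4.0.16 on the recovered reads, and each library left out in turn. Gene positions and exon overlaps are from Gencode v44, promoters from RefSeq, and protein sequences were not used here.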

Additional observations from a re-analysis of the deposited data

How the results depend on the processing

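ERN1, EIF2AK3, XBP1 and CREB3L2 passed in 9 of 9 alternative fits and in 6 of 6 fits that left out a library, with limma adjusted p-values of at most 0.00755, reached by ERN1 without the variance trend. CREB3 passed in 6 of 9 and 3 of 6, MBTPS2 in 6 of 9 and 2 of 6, ATF6 in 3 of 9 and 1 of 6, and ATF6B and MBTPS1 in none. The number of the 9 genes past the test was 4 to 7, both over the alternatives and with a library left out. MBTPS1 reversed to 0.092 after quantile normalization.

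The genes called across the table numbered 6528, and 4090 without the variance trend (3783 shared). With a library left out they numbered 4319 (without low glucose replicate 1) to 7251. Scaling to library totals gave 3935 higher and 2647 lower genes, against 3111 and 3417, and moved the median log2 fold change of genes with a mean of at least 20 from -0.02 to 0.06. DESeq2 gave 5486 and edgeR 6554. Of the 90 genes in the lists, 61 passed, and 52 to 67 over all these fits.

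With a library left out, the difference in the log2 ratio of ATF6 to ATF6B ran from -0.081 (without the control library of 9741183 reads) to 0.19, and was -0.0055 without low glucose replicate 1. That of ERN1 to EIF2AK3 ran from -0.17 to 0.044 (without the control library of 10190154 reads), and was 0.030 without the third low-glucose library. The cause of the shifts given here was not tested.

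No paired analysis was possible because the control columns carry no replicate number. With 3 libraries per condition, the 95% intervals of ATF6B and MBTPS1 included 0, so a small change of either could not be told from none.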
